A study of Mus musculus with 112 samples.

Results

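The comparison described here set mouse embryonic stem cells (ESCs) that lack both MLL4 and LSD1 against ESCs that lack MLL4 and keep a catalytically inactive LSD1. Its members were chosen by label: the 4 RNA-seq libraries of MLL4/LSD1 DKO ESCs and the 4 of MLL4KO/LSD1CI ESCs, 8 of the 112 libraries of the series. MLL4/LSD1 DKO cells were made by deleting MLL4 in LSD1 KO cells, in which the promoter and first exon of the LSD1 gene, Kdm1a, had been removed. MLL4KO/LSD1CI cells were made by deleting MLL4 in LSD1 CI cells, in which catalytic residues of the endogenous LSD1 had been substituted. All were untreated naive V6.5 ESCs kept without serum in 2i/LIF, a mixture of MEK and GSK3 inhibitors with leukaemia inhibitory factor. The comparison asked whether removing the LSD1 protein and removing only its catalytic activity left the same transcriptome once MLL4 was gone. Other naive ESCs served as context: MLL4 KO (2 libraries), LSD1 KO (6), LSD1 CI (4) and WT (11). Contrasts with these groups came from a fit of all 43 untreated naive ESC libraries. That fit also held lines lacking RCOR2, RCOR1 or both, which are partners of LSD1. They were not compared here, but they entered its filter, its scaling and its estimate of spread. The study used more than one clone per genotype, and the labels do not say which library came from which clone, so the p-values measure the spread between these libraries. An allele carried by a parental LSD1 KO or LSD1 CI clone passes to the libraries derived from that clone. Where all libraries of a line share such an allele, it cannot be told apart from the state of LSD1, and the labels do not say whether they do.

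LSD1 removes methyl groups from mono- and dimethylated lysine 4 of histone H3 and sits in the CoREST complex with RCOR1 or RCOR2 and the deacetylases HDAC1 and HDAC2. MLL4, encoded by Kmt2d, monomethylates the same lysine at enhancers and is needed there for recruitment of the acetyltransferase p300. The 2 enzymes therefore act in opposite directions on one mark, and a catalytically inactive LSD1 separates the loss of demethylation from the loss of the protein.

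The promoter windows below are shown because their genes carry the comparison: Kdm1a, whose promoter the knockout targets, Liph and Lrp2, which were higher in MLL4/LSD1 DKO cells, and Gsx2 and Sox21, which were lower. Each runs 5' to 3' from 250 bases before to 50 bases after the RefSeq start on build GRCm38.p6, on the gene's own strand: Kdm1a at chr4:136602674-136602973 (-), Liph at chr16:21995493-21995792 (-), Lrp2 at chr2:69585980-69586279 (-), Gsx2 at chr5:75075351-75075650 (+) and Sox21 at chr14:118236981-118237280 (-). Capitals mark matches on either strand to CCNCACCC, the core bound by KLF factors, and to ATGCAAAT, the octamer bound by OCT4.
Kdm1a: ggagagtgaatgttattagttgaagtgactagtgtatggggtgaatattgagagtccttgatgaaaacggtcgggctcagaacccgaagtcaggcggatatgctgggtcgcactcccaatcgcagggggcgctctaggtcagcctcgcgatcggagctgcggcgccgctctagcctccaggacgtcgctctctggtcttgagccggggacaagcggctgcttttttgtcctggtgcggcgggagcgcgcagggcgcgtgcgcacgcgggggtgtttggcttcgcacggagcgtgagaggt
Liph: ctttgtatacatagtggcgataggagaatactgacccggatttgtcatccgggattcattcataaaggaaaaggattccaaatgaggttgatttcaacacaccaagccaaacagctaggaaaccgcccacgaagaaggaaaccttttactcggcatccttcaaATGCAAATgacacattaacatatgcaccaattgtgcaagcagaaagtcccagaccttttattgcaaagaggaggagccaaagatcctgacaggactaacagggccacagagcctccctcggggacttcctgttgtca
Lrp2: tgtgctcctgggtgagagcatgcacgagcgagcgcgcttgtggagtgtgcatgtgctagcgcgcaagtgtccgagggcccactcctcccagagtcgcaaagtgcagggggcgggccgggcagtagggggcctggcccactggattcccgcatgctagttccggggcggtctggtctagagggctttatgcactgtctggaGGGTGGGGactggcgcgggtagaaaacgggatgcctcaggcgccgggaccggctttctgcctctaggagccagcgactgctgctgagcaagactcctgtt
Gsx2: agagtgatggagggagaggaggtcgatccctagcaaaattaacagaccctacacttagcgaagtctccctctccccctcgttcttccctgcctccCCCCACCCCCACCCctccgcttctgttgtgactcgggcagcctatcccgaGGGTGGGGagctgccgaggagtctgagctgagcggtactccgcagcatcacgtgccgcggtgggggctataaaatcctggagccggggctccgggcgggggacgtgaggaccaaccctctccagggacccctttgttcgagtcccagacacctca
Sox21: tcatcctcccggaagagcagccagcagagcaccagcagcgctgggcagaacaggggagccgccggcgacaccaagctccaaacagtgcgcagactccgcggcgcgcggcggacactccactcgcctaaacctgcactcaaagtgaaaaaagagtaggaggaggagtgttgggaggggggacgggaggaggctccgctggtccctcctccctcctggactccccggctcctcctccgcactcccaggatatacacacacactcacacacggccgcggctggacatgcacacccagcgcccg
Liph held 1 octamer, Lrp2 held 1 KLF core and Gsx2 held 3, some of them overlapping each other, while neither Kdm1a nor Sox21 held a match. Of all 32851 mouse promoter windows of this length in the RefSeq table, 16.6% held the KLF core and 1.74% the octamer, and no KLF match overlapped an octamer. CpG dinucleotides numbered 29 in Kdm1a, 7 in Liph, 20 in Lrp2, 17 in Gsx2 and 22 in Sox21, against a median of 7 over all windows.

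The targeted gene followed its labels. Kdm1a (chr4:136106448-136158638 on build mm9, as all gene positions below) had 9.35, 5.21, 4.99 and 2.95 CPM (counts scaled for the size and composition of each library) in MLL4/LSD1 DKO cells, against 146, 138, 135 and 137 CPM in MLL4KO/LSD1CI cells. The groups were far apart, with a log2 fold change of -4.60 ± 0.27 (SE, n = 4 each, edgeR quasi-likelihood adjusted p = 8.85e-07). MLL4KO/LSD1CI cells therefore kept Kdm1a RNA, close to the 155 to 231 CPM of WT cells, and whether that RNA carries the substitutions cannot be read from gene counts. Kmt2d had 172, 148, 211 and 177 CPM in MLL4/LSD1 DKO cells, against 202, 200, 341 and 390 CPM in MLL4KO/LSD1CI cells, and 211 and 219 CPM in MLL4 KO cells. Replicates 3 and 4 of MLL4KO/LSD1CI lay inside the WT range of 299 to 819 CPM and the other libraries of both groups below it, and Kmt2d RNA, summed over the whole gene, was present in every MLL4-null library. The difference between the groups (log2 -0.67 ± 0.21, adjusted p = 0.0376) was not called. Calls used an adjusted p below 0.01 and a log2 fold change beyond 1 in either direction.

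**Figure D1:**
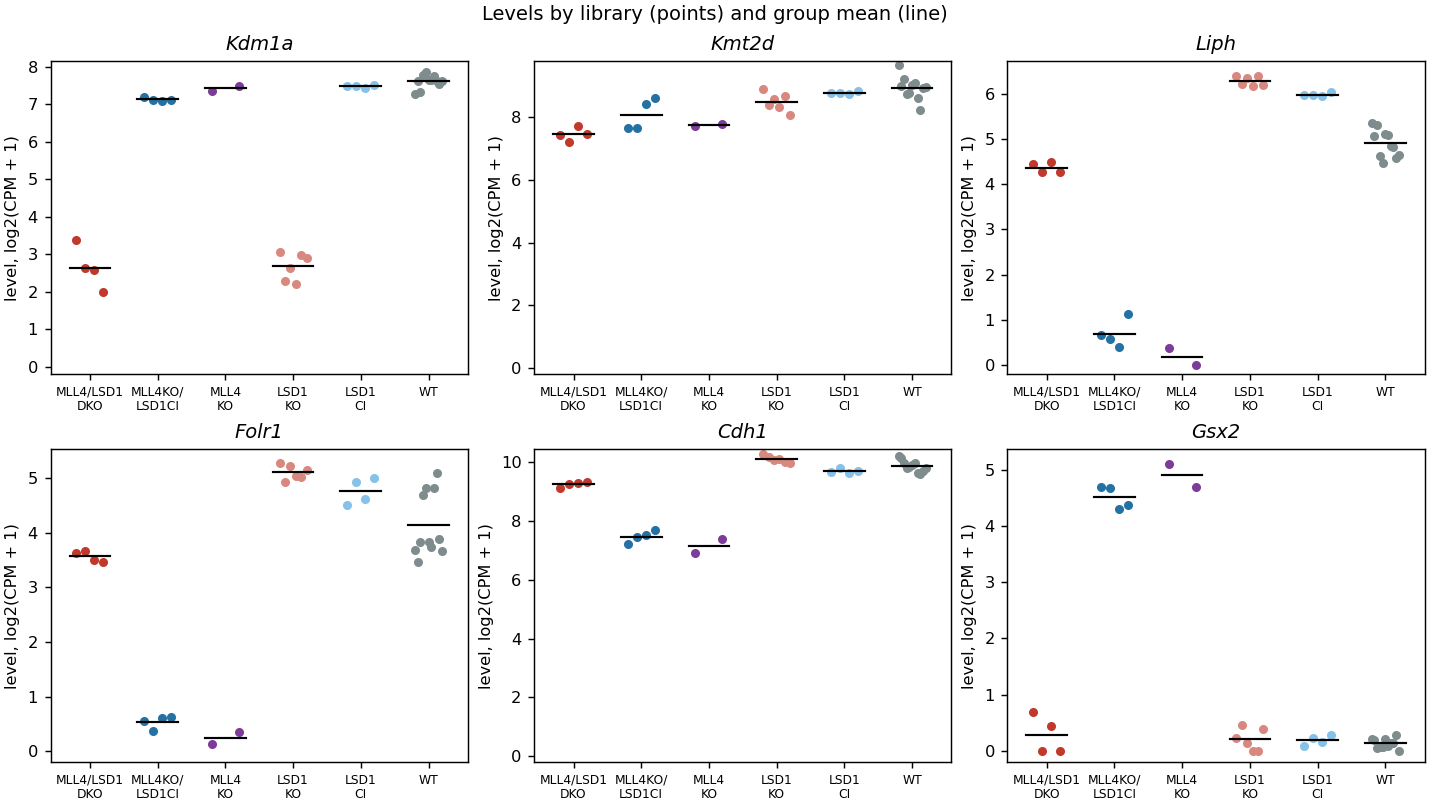
Levels of 6 genes in each library (points) and their group means (lines), as log2(CPM + 1) on the y axis, for MLL4/LSD1 DKO, MLL4KO/LSD1CI, MLL4 KO, LSD1 KO, LSD1 CI and WT ESCs. Liph, Folr1 and Cdh1 lie high in MLL4/LSD1 DKO cells and low in MLL4KO/LSD1CI and MLL4 KO cells, Gsx2 lies the other way, and Kdm1a is low only in the groups whose LSD1 was deleted.

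The 8 libraries held 17.3 to 22.1 M counts, of which the ribosomal precursor Rn45s took 14.4% to 23.9%, so that an unscaled level of 1 CPM stood for 17.3 to 22.1 counts and differences below that level were the least precise. Within a group, libraries correlated at a median r of 0.977 in MLL4/LSD1 DKO and 0.975 in MLL4KO/LSD1CI cells, across genes on the log2 CPM scale.

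Of 14140 genes tested, 846 were higher in MLL4/LSD1 DKO than in MLL4KO/LSD1CI cells (5.98% called higher) and 379 were lower (2.68% called lower), which is 8.66% called in all. The median over all genes was -0.0072 on the log2 scale. The scaling between libraries assumes that most genes do not differ, so this median cannot show whether the whole transcriptome shifted. The called changes were large: 387 of the higher and 118 of the lower genes passed 4-fold, and 59 and 22 of them passed 16-fold. In 845 of the 846 higher genes and 378 of the 379 lower ones the 2 groups of libraries did not overlap, against 30.4% of all genes tested. The calls were drawn from these same libraries, so this follows largely from the thresholds and is not separate support. Restricting the fit to replicate numbers 1 and 2 left 312 higher and 148 lower genes, and numbers 3 and 4 left 345 and 158, while numbers 1 and 3 gave 803 and 346 and numbers 2 and 4 gave 856 and 443. No other alternative moved the count by over 1.5 times.

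**Figure D2:**
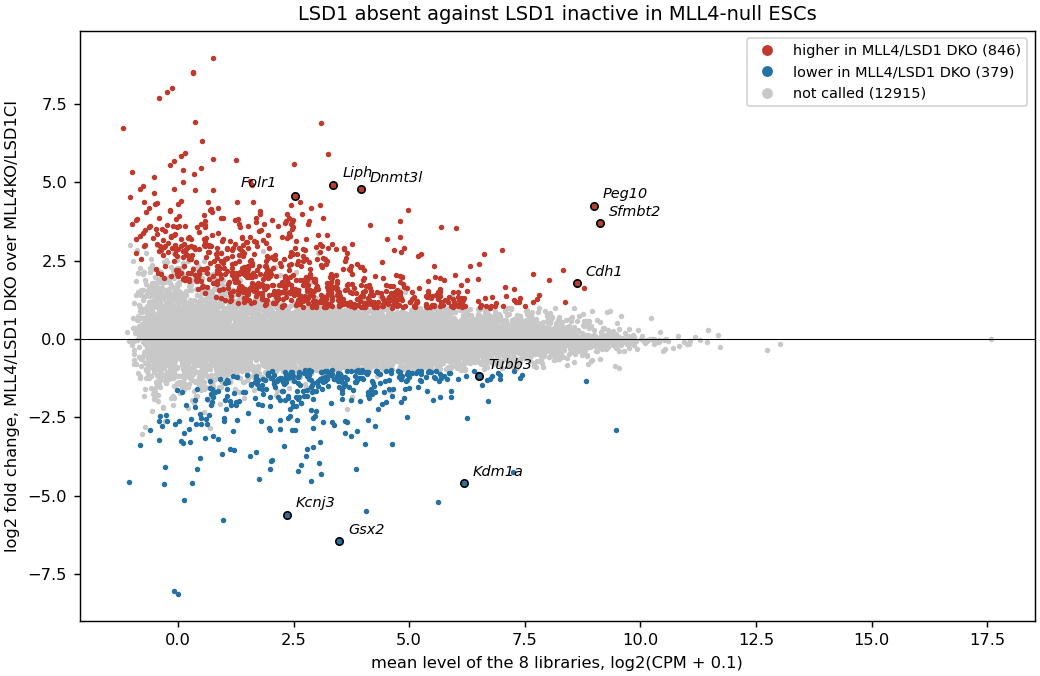
Log2 fold change of MLL4/LSD1 DKO over MLL4KO/LSD1CI (y axis) against the mean level of the 8 libraries as log2(CPM + 0.1) (x axis), 1 point per gene tested. The 846 higher genes reach from low to high levels, with Peg10 and Sfmbt2 as highly expressed examples, and the 379 lower genes include Kdm1a, Gsx2 and Kcnj3.

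A share of these differences fell on a single chromosome. The 679 tested genes of chromosome 6 had a median log2 fold change of 0.56, while the medians of the other chromosomes ran between -0.08 and 0.03, and 100 of them were called higher and 7 lower. Against WT replicates 10 and 11, the median of chromosome 6 genes stood at 0.50 to 0.52 on the log2 scale in the MLL4/LSD1 DKO libraries, at -0.05 to -0.03 in the MLL4KO/LSD1CI libraries and at -0.0068 and -0.0025 in the MLL4 KO libraries. In LSD1 CI cells it stood at 0.50 and 0.51 in replicates 1 and 3 but at -0.02 and -0.03 in replicates 2 and 4, in LSD1 KO cells at 0.08 to 0.12, and in the 11 WT libraries between -0.0048 and 0.31. The chromosome thus differed between libraries of one genotype as well, and LSD1 KO cells, which also lack LSD1, did not reach the MLL4/LSD1 DKO level. Within the direct comparison the level of the chromosome cannot be told apart from the state of LSD1, and its cause was not tested. Of the 100 higher genes on it, 45 also exceeded the chromosome's own median by more than 1. Outside chromosome 6, 746 of 13461 genes (5.54%) were higher and 372 (2.76%) lower. A named gene that lies on chromosome 6 is marked as such below.

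**Figure D3:**
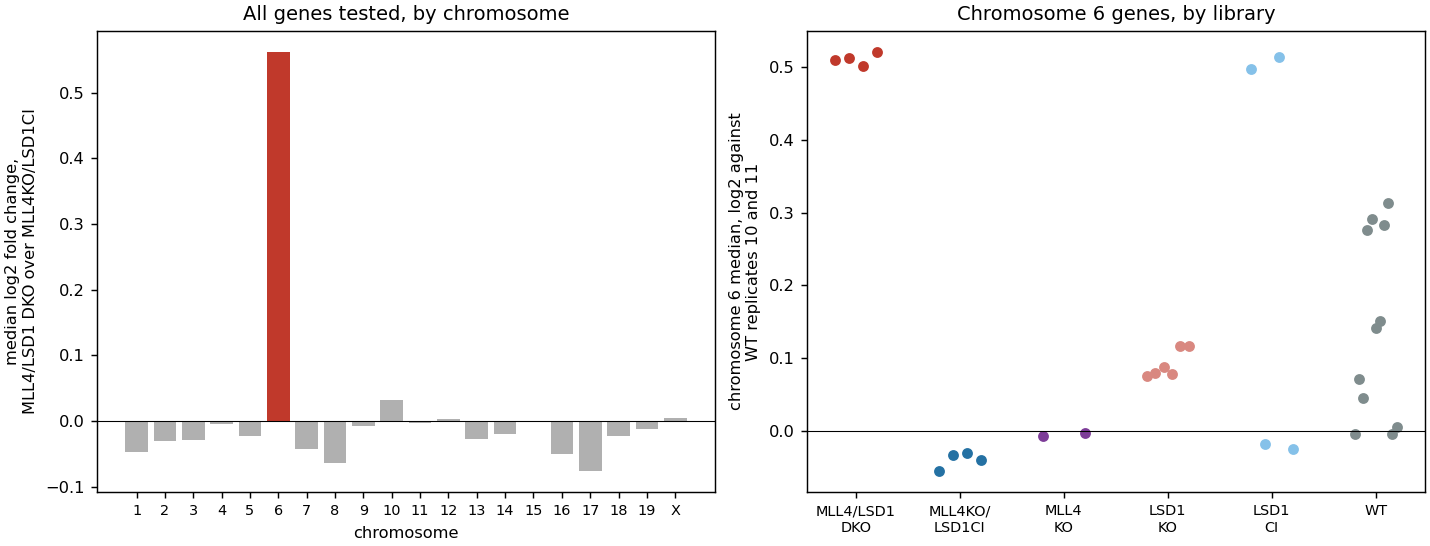
Left, median log2 fold change of MLL4/LSD1 DKO over MLL4KO/LSD1CI for the genes tested on each chromosome. Right, median log2 level of chromosome 6 genes in each library (points) relative to WT replicates 10 and 11 and to the median of all genes. Chromosome 6 is at 0.56 in the comparison, and all 4 MLL4/LSD1 DKO libraries and 2 of the 4 LSD1 CI libraries sit near 0.5.

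Of the 2 groups, MLL4/LSD1 DKO was the one that departed from MLL4 KO cells. Set against the same 2 MLL4 KO libraries, MLL4/LSD1 DKO cells had 1105 genes higher (6.28%) and 402 lower (2.28%) of 17603 tested (8.56% called), whereas MLL4KO/LSD1CI cells had 23 higher (0.131%) and 2 lower (0.0114%; 0.142% called). With an unadjusted p below 0.05, the counts were 5923 (33.6%) and 1125 genes (6.39%), and the median absolute log2 difference was 0.39 and 0.17. Because both comparisons share the MLL4 KO libraries they are given side by side only, and the direct comparison above is the test of their difference. Without replicate 1 of MLL4 KO the calls were 876 for MLL4/LSD1 DKO and 6 for MLL4KO/LSD1CI, and without replicate 2 they were 1087 and 15. DESeq2 called 1670 and 47. The gene with the smallest p between MLL4KO/LSD1CI and MLL4 KO cells was Grb10, an imprinted adaptor that dampens growth factor signalling, with 31.6 CPM on average in MLL4KO/LSD1CI and 214 CPM in MLL4 KO cells (log2 -2.76). Of the 23 genes higher in MLL4KO/LSD1CI, Rnf17, a germ cell Tudor protein (75.5 CPM, against 29.3 CPM in MLL4 KO), and Eps8, an actin regulator on chromosome 6 (26.4 CPM, against 11.3 CPM in MLL4 KO), were higher again in MLL4/LSD1 DKO cells, at 196 and 133 CPM. These examples were chosen after their values were seen.

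Liph, a membrane-associated phospholipase that makes lysophosphatidic acid (chr16:21953891-21995615), was among the largest differences of genes that reached a mean of 5 CPM in one group. It had 20.6, 18.4, 21.4 and 18.3 CPM in MLL4/LSD1 DKO cells, against 0.593, 0.490, 0.318 and 1.195 CPM in MLL4KO/LSD1CI cells, a 30.3-fold higher level (log2 4.92 ± 0.29, adjusted p = 2.56e-07). MLL4 KO cells had 0.288 and 0 CPM and WT cells 21.1 to 40.1 CPM, so that MLL4/LSD1 DKO cells lay near the lower end of WT and MLL4KO/LSD1CI cells beside MLL4 KO. Folr1, a folate receptor (chr7:109006845-109019302), followed the same order. It had 11.4, 11.7, 10.4 and 10.1 CPM in MLL4/LSD1 DKO cells, against 0.474, 0.294, 0.531 and 0.543 CPM in MLL4KO/LSD1CI cells (log2 4.56 ± 0.25, adjusted p = 1.42e-07), with 10.01 to 33.2 CPM in WT cells. Gsx2, a homeobox factor of the developing forebrain (chr5:75471626-75473918), went the other way. It had 0.609, 0, 0.356 and 0 CPM in MLL4/LSD1 DKO cells, against 24.96, 24.5, 18.8 and 19.8 CPM in MLL4KO/LSD1CI cells, and its 33.5 and 24.9 CPM in MLL4 KO cells contrasted with at most 0.219 CPM in WT cells. The log2 fold change was -6.45 ± 0.53 (adjusted p = 8.52e-06).

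Other genes with large increases had varied roles. Dnmt3l, the cofactor of de novo DNA methyltransferases, had 32.3, 34.9, 28.7 and 22.7 CPM in MLL4/LSD1 DKO cells, against 0.593, 0.588, 2.34 and 0.761 CPM in MLL4KO/LSD1CI cells (log2 4.79 ± 0.36, adjusted p = 4.33e-06), and its WT levels ran from 11.7 to 125 CPM. Rab27a, a GTPase of secretory vesicle transport, had 60.2, 51.0, 67.8 and 59.9 CPM, against 3.91, 2.695, 3.40 and 3.75 CPM in MLL4KO/LSD1CI cells (log2 4.13 ± 0.15, adjusted p = 4.70e-09). These MLL4/LSD1 DKO levels were above the 8.39 to 17.5 CPM of WT cells and close to the 64.9 to 75.9 CPM of LSD1 KO cells. Hesx1, a homeobox repressor of the anterior epiblast and pituitary, had 10.3 to 13.5 CPM in MLL4/LSD1 DKO cells, against 0.326 to 1.17 CPM in MLL4KO/LSD1CI cells (log2 4.36). Rcsd1, a regulator of actin capping, had 16.4, 14.4, 7.54 and 5.68 CPM, against 0.0593, 0.490, 0 and 0.326 CPM in MLL4KO/LSD1CI cells (log2 5.58 ± 0.61), and reached at most 0.349 CPM in WT cells. With MLL4 present it was expressed in both LSD1 lines, at 18.9 to 21.9 CPM in LSD1 KO and 6.27 to 11.7 CPM in LSD1 CI cells. Replicates 1 and 2 of MLL4/LSD1 DKO were well above replicates 3 and 4 for this gene, a spread far smaller than the difference between the groups.

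The remaining genes with the largest increases at this level of expression came from low levels in MLL4KO/LSD1CI cells. They were the kinase Stk32a, the glutathione-degrading enzyme Ggt1, the blood and endothelial factor Tal1, the adhesion receptor Adgrf5, the plasma carboxypeptidase subunit Cpn1, the cation channel Pkd2l1 and the uncharacterised transcripts 1700108F19Rik and G730013B05Rik. Their highest MLL4KO/LSD1CI library stood at 1.49 CPM, for Cpn1, where MLL4/LSD1 DKO libraries had 10.1, 14.6, 16.9 and 21.5 CPM. Among genes with a mean of at least 5 CPM in one group, the largest log2 increase was that of 1700108F19Rik, at 6.89 ± 0.39, with 20.8, 17.4, 15.1 and 13.6 CPM in MLL4/LSD1 DKO cells, against 0.237, 0, 0.106 and 0.217 CPM in MLL4KO/LSD1CI cells. WT cells had at most 1.38 CPM of it. G730013B05Rik had 16.9 to 20.5 CPM in MLL4/LSD1 DKO cells, against at most 0.735 CPM in MLL4KO/LSD1CI, 1.24 CPM in LSD1 CI and 0.286 CPM in WT cells. Among the 846 higher genes, 7 had no count in any MLL4KO/LSD1CI library. One of them, Esr2, the beta oestrogen receptor, had 186 counts over the 4 MLL4/LSD1 DKO libraries and was picked after its values were seen.

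Imprinted genes, which are expressed from the allele of one parent, included some of the strongest changes. Of 23 tested, 8 were higher and 1 lower, beside 5.98% called higher and 2.68% called lower over all genes, with a median log2 fold change of 1.16 beside -0.0072. Peg10, a retrotransposon-derived gene needed for the placenta, had 931, 827, 1105 and 997 CPM in MLL4/LSD1 DKO cells, against 55.4, 51.5, 50.7 and 45.9 CPM in MLL4KO/LSD1CI cells (log2 4.25 ± 0.11, adjusted p = 3.10e-10). None of the groups used as context came near this level: MLL4 KO cells had 41.0 and 23.8 CPM, LSD1 KO cells 88.5 to 185 CPM, LSD1 CI cells 30.9 to 145 CPM and WT cells 17.6 to 63.8 CPM. Sgce, its divergently transcribed neighbour and a sarcoglycan, had 31.1, 34.2, 31.2 and 34.5 CPM in MLL4/LSD1 DKO cells, against 1.42, 4.07, 1.70 and 3.37 CPM in MLL4KO/LSD1CI cells (log2 3.62). Mest, a hydrolase-like gene, had 565 to 799 CPM, against 197 to 227 CPM in MLL4KO/LSD1CI cells (log2 1.62). These 3 genes lie on chromosome 6, and their changes exceeded its median of 0.56. The other members that were higher were Grb10, Meg3, Rian, Mirg and Snrpn, none of them on that chromosome. Snrpn was at a low level, with means of 1.29 CPM in MLL4/LSD1 DKO and 0.314 CPM in MLL4KO/LSD1CI cells. Neighbours such as Peg10 and Sgce were counted as separate members, so the calls of the list are not all of separate loci. Grb10 averaged 72.0 CPM in MLL4/LSD1 DKO cells and 31.6 CPM in MLL4KO/LSD1CI cells, both below the 214 CPM of MLL4 KO cells (log2 -1.57 for MLL4/LSD1 DKO against MLL4 KO). Ndn, a growth-suppressing gene of the Prader-Willi region, was the member that was lower, with 4.87 to 7.36 CPM in MLL4/LSD1 DKO cells, against 14.6 to 19.8 CPM in MLL4KO/LSD1CI cells (log2 -1.49). Sfmbt2, a polycomb-related gene imprinted in mouse and picked here after its values were seen, had 1245, 996, 980 and 907 CPM in MLL4/LSD1 DKO cells, against 72.1, 80.3, 74.8 and 90.6 CPM in MLL4KO/LSD1CI cells (log2 3.71 ± 0.12). Its LSD1 KO level was intermediate, at 367 to 399 CPM, and its WT level 79.1 to 126 CPM.

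Genes of simple epithelium, the adhesion and keratin genes that ESCs share with epithelial sheets, were higher in 6 of 16 tested members and lower in none, beside 5.98% called higher and 2.68% called lower over all genes, with a median log2 fold change of 0.98 beside -0.0072. Cdh1, which encodes E-cadherin, had 558, 617, 620 and 646 CPM in MLL4/LSD1 DKO cells, against 147, 177, 182 and 206 CPM in MLL4KO/LSD1CI cells (log2 1.78 ± 0.10, adjusted p = 1.99e-07), with 119 and 168 CPM in MLL4 KO and 776 to 1186 CPM in WT cells. Epcam, an adhesion molecule, had 89.7 to 116 CPM, against 35.9 to 47.5 CPM in MLL4KO/LSD1CI cells (log2 1.32). Grhl2, a transcription factor that keeps epithelia together, had 20.9 to 29.0 CPM, against 2.499 to 7.23 CPM in MLL4KO/LSD1CI cells (log2 2.38), and both ranges were above the WT maximum of 2.39 CPM. Krt18, Krt8 and the splicing factor Esrp1 were the other members called. Of 11 basement membrane genes, 3 were higher and none lower, with a median of 0.19: Sparc, a matrix glycoprotein, with 155, 184, 169 and 174 CPM in MLL4/LSD1 DKO cells, against 30.6, 20.0, 31.8 and 21.5 CPM in MLL4KO/LSD1CI cells (log2 2.72 ± 0.15, adjusted p = 1.99e-07), the laminin Lama5 (log2 1.19) and the laminin Lama4 (log2 1.60).

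Calls among neural genes were mostly lower. Of 16 tested, 6 were lower and 1 higher, beside 2.68% called lower and 5.98% called higher over all genes, with a median log2 fold change of -0.66 beside -0.0072. Besides Gsx2, the neural progenitor factor Sox1 had 2.09, 3.13, 3.20 and 2.251 CPM in MLL4/LSD1 DKO cells, against 31.8, 19.01, 21.2 and 14.0 CPM in MLL4KO/LSD1CI cells (log2 -3.01 ± 0.26, adjusted p = 5.82e-06). Tubb3, a neuronal tubulin, had 51.2 to 59.4 CPM, against 110 to 142 CPM in MLL4KO/LSD1CI cells (log2 -1.19). Map2, Nes and Snap25 were also lower and Gap43 was higher (log2 1.23). Ncam1, a cell adhesion molecule, had 117 to 139 CPM, against 197 to 202 CPM in MLL4KO/LSD1CI cells, a difference of -0.68 that did not pass the fold threshold. The summed level of the whole list was 401 to 452 CPM in MLL4/LSD1 DKO libraries and 662 to 742 CPM in MLL4KO/LSD1CI libraries.

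**Figure D4:**
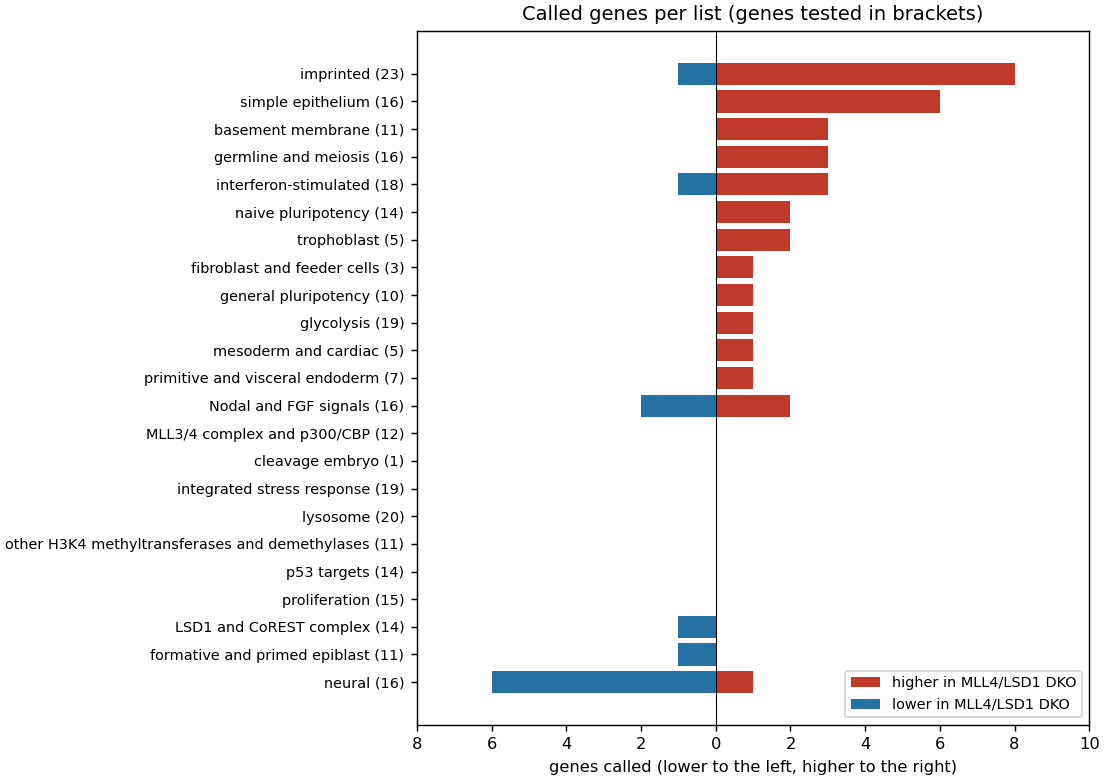
Number of genes called per list, with genes higher in MLL4/LSD1 DKO than in MLL4KO/LSD1CI to the right of 0 and genes lower to the left, and the number of genes tested in brackets. Imprinted genes (8 higher) and simple epithelium genes (6 higher) extend farthest to the right and neural genes (6 lower) farthest to the left, while 7 lists have no call.

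Genes with the largest decreases at a mean of at least 5 CPM in one group had varied roles. Kcnj3, a potassium channel subunit, had 0.348, 0.0868, 0 and 0.322 CPM in MLL4/LSD1 DKO cells, against 9.13, 8.43, 10.1 and 11.7 CPM in MLL4KO/LSD1CI cells (log2 -5.61 ± 0.45). Grm4, a glutamate receptor, had 0.214 to 1.13 CPM, against 17.6 to 49.9 CPM in MLL4KO/LSD1CI cells (log2 -5.48), and Gad2, which makes the transmitter GABA, had 0.107 to 1.87 CPM, against 8.37 to 20.8 CPM (log2 -3.95). Ntn1, the axon guidance cue netrin, had 11.2, 7.12, 30.7 and 11.7 CPM in MLL4/LSD1 DKO cells, against 273, 294, 280 and 307 CPM in MLL4KO/LSD1CI cells (log2 -4.26 ± 0.42, adjusted p = 1.05e-04). Sall3, a zinc finger factor, had 1.56, 0.868, 7.003 and 1.39 CPM, against 117, 79.6, 102 and 82.0 CPM in MLL4KO/LSD1CI cells (log2 -5.20 ± 0.56). For both genes replicate 3 was the highest MLL4/LSD1 DKO library, still far below every MLL4KO/LSD1CI library. Pou3f2, a neural POU factor, Nsg2, a neuronal vesicle protein, and Nkx1-2, a homeobox gene of the tail-end epiblast, had log2 fold changes of -4.16, -4.55 and -4.30. Other large decreases were those of Tmem200a, Spats2l, the channel Trpm1, the cytochrome P450 gene Cyp2b23 and the NLR gene Nlrp4g, with log2 fold changes between -4.46 and -3.90. Cyp2b23 and Nlrp4g belong to families of similar copies, so their counts may hold reads of relatives.

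Of the naive, general, and formative and primed pluripotency lists, 2 of 14, 1 of 10 and 1 of 11 tested genes were called, beside 8.66% over all genes. Pou5f1, the gene of OCT4, had 330 to 406 CPM in MLL4/LSD1 DKO cells, against 411 to 559 CPM in MLL4KO/LSD1CI cells (log2 -0.39), Sox2 had 327 to 394 CPM, against 416 to 469 CPM (log2 -0.32), and Esrrb had 516 to 593 CPM, against 620 to 673 CPM (log2 -0.22). None was called, although the libraries of the groups did not overlap in any of the 3 genes. Klf2, a naive-state factor, missed only the fold threshold, with 158, 141, 208 and 154 CPM in MLL4/LSD1 DKO cells, against 326, 279, 308 and 322 CPM in MLL4KO/LSD1CI cells (log2 -0.90 ± 0.12, adjusted p = 1.17e-04). Without replicate 3 of MLL4/LSD1 DKO its log2 fold change was -1.03 and was called. Tfcp2l1, another naive factor, had 427 to 547 CPM, against 816 to 982 CPM in MLL4KO/LSD1CI cells (log2 -0.87). Of 14 naive genes, 2 were higher and none lower, beside 5.98% and 2.68% over all genes, with a median of -0.24. One was Tcl1, a coactivator of AKT, with 57.9, 66.2, 37.7 and 36.2 CPM in MLL4/LSD1 DKO cells, against 5.81, 8.33, 6.37 and 8.69 CPM in MLL4KO/LSD1CI cells (log2 2.77 ± 0.22). The other was Dppa3, an oocyte and germ cell factor on chromosome 6, with 63.1 to 77.2 CPM, against 23.4 to 36.9 CPM in MLL4KO/LSD1CI cells (log2 1.26, adjusted p = 0.041 in the fit of all 43 naive ESC libraries). Of 10 general pluripotency genes 1 was higher: Dppa5a, an RNA-binding protein, with 407, 384, 251 and 284 CPM, against 57.2, 53.7, 99.4 and 104 CPM in MLL4KO/LSD1CI cells (log2 2.08 ± 0.25), a call lost with the replicate number as a block (adjusted p = 0.0245). Of 11 formative and primed genes 1 was lower, Fgf15 (log2 -2.06).

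Partners of the altered enzymes were not called. In the LSD1 and CoREST list only Kdm1a was called of 14 tested. Rcor1 had 40.2 to 47.6 CPM in MLL4/LSD1 DKO cells, against 46.8 to 59.2 CPM in MLL4KO/LSD1CI cells (log2 -0.26), and Rcor2 had 94.2 to 106 CPM, against 89.7 to 110 CPM (log2 -0.0040). Hdac1 (log2 0.40 ± 0.09) and Hdac2 (log2 -0.75 ± 0.09) passed the adjusted p and not the fold. None of 12 genes of the MLL3/4 complex and p300/CBP and none of 11 other H3K4 methyltransferases and demethylases was called. The integrated stress response (19 genes tested), lysosome (20), proliferation (15), p53 target (14) and cleavage embryo (1) lists also had no call with edgeR, and DESeq2 called no gene of these 7 lists. At an unadjusted p below 0.05 they held 7 genes (MLL3/4 and p300/CBP), 4 (other H3K4 enzymes), 9 (stress response), 7 (lysosome), 4 (proliferation), 7 (p53 targets) and 0 (cleavage embryo). Over all genes tested, 5595 of 14140 (39.6%) had an unadjusted p below 0.05, so these counts set no list apart. Psap, a lysosomal sphingolipid activator, had 200 to 257 CPM in MLL4/LSD1 DKO cells, against 131 to 164 CPM in MLL4KO/LSD1CI cells (log2 0.61), and the ubiquitin ligase Rnf213 had 12.7 to 20.2 CPM, against 7.22 to 12.7 CPM (log2 0.65). Rnf213 stayed far below its 177 to 295 CPM in WT cells in both groups.

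Of the germline, interferon and signalling lists, 3 of 16, 4 of 18 and 4 of 16 tested genes were called, beside 8.66% over all genes. Of 16 germline and meiosis genes 3 were higher: Hormad1, a chromosome axis protein, with 38.9 to 76.4 CPM, against 19.01 to 27.1 CPM in MLL4KO/LSD1CI cells (log2 1.37), the cohesin gene Smc1b (log2 2.98) and the axis gene Sycp3 (log2 1.67). Of 18 interferon-stimulated genes 3 were higher and Oas1a was lower. Parp14, an ADP-ribosyltransferase, had 13.6 to 16.3 CPM in MLL4/LSD1 DKO cells, against 1.86 to 3.40 CPM in MLL4KO/LSD1CI cells (log2 2.54), and the antiviral genes Bst2 and Ifit2 had log2 fold changes of 1.36 and 1.32. Among 16 Nodal and FGF signal genes 2 were higher, among them the FGF target Etv4 (log2 2.89), and 2 were lower, the ligand Fgf17 (log2 -1.58) and the receptor Fgfr2 (log2 -1.28, adjusted p = 0.219 in the fit of all 43 libraries). Of 19 glycolytic genes only Hk1 was higher (log2 1.498).

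Markers of other cell types were mixed. The trophoblast, endoderm, mesoderm and cardiac, and fibroblast lists had 2 of 5, 1 of 7, 1 of 5 and 1 of 3 tested genes called, all higher, beside 5.98% called higher over all genes. These lists held 13, 14, 14 and 11 genes, and the rest did not pass the filter on low counts. A gene can pass that filter through 1 group alone, so the shares of tested genes overstate those of the lists. Cdx2 (trophoblast), Afp and Ttr (endoderm) and Postn, Lum and Dcn (fibroblasts) had no count in any of the 8 libraries. Trophoblast markers were higher in 2 of 5 tested: Plac8 had 15.4, 17.5, 15.4 and 16.8 CPM in MLL4/LSD1 DKO cells, against 0, 0.686, 0.425 and 3.37 CPM in MLL4KO/LSD1CI cells, and Tfap2a had 4.35, 3.82, 10.9 and 8.31 CPM, against 3.02, 2.06, 1.96 and 2.66 CPM. The Plac8 call was lost without replicate 2 or 3 of MLL4KO/LSD1CI, without the filter on low counts, and with the replicate number as a block (adjusted p = 0.0151). The Tfap2a call was lost without any one of replicates 3 and 4 of MLL4/LSD1 DKO or replicates 2, 3 and 4 of MLL4KO/LSD1CI, with adjusted p from 0.0139 to 0.0205. Dab2 was the endoderm marker called (1 of 7, log2 2.245, lost without replicate 4 of MLL4/LSD1 DKO at adjusted p = 0.0105), Myl7 the cardiac one (1 of 5, log2 2.09) and Thy1 the fibroblast one (1 of 3, log2 2.32). The trophoblast list summed to 115 to 142 CPM in MLL4/LSD1 DKO libraries and 64.5 to 92.8 CPM in MLL4KO/LSD1CI libraries, and the fibroblast list, nearly all of it Fn1, to 1006 to 1457 CPM and 1327 to 1979 CPM. The endoderm list summed to 59.9 to 79.4 CPM and 71.0 to 92.3 CPM, and the mesoderm and cardiac list to 4.91 to 7.83 CPM and 4.802 to 8.54 CPM, in the same order of groups. The part of such cells in the results was not tested, and fewer cells that express a gene cannot be told apart from less RNA per cell in these bulk libraries.

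To see how the comparison related to the response to MLL4 loss, genes were listed by the contrast of MLL4 KO with WT libraries, which are not part of the direct comparison. The contrast came from the fit of all 43 naive ESC libraries, so the 8 libraries compared here entered its filter and its estimate of spread. MLL4 KO cells had 625 genes higher (3.55%) and 1213 lower (6.89%) than WT cells (10.4% called). Of the 1005 lower ones that were tested in both, 381 (37.9%) were higher in MLL4/LSD1 DKO than in MLL4KO/LSD1CI cells and 11 (1.09%) lower, beside 5.98% and 2.68% over all genes, and their median log2 fold change was 0.95. Of the 575 tested genes that were higher in MLL4 KO, 152 (26.4%) were lower in MLL4/LSD1 DKO than in MLL4KO/LSD1CI cells and 14 (2.43%) higher, with a median of -0.60. The other listed genes did not pass the filter on low counts of the direct comparison. A gene low in 1 group can pass it through the other group alone, so these shares can overstate those of the full lists. When only WT replicates 10 and 11 were used to draw the lists, MLL4 KO cells had 279 genes higher and 491 lower, and the medians were 1.01 over 476 tested genes lower in MLL4 KO and -0.71 over 274 higher in MLL4 KO. Without replicate 1 of MLL4 KO the lists held 382 and 651 genes.

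**Figure D5:**
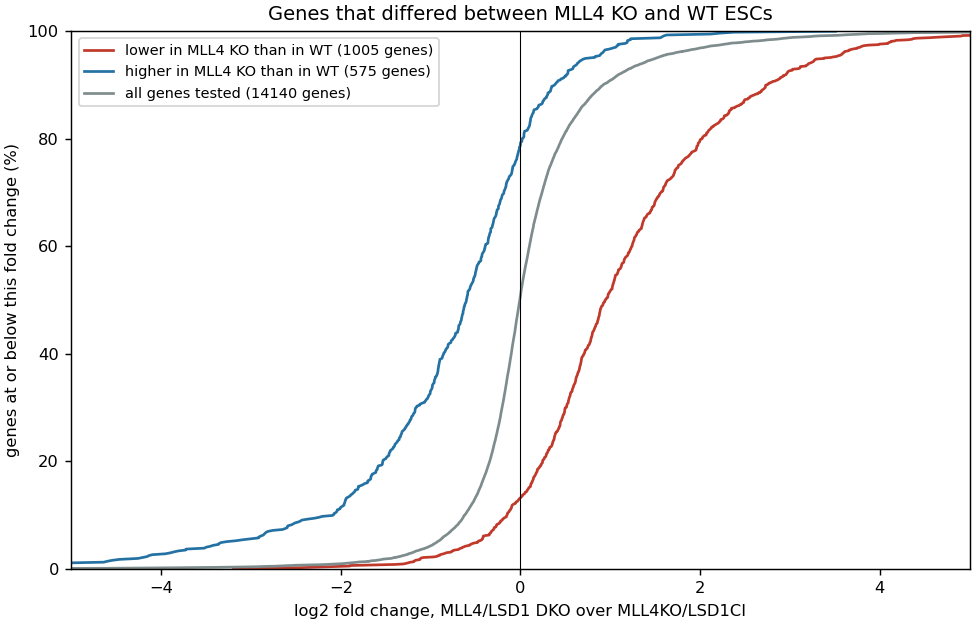
Cumulative share of genes (y axis, %) at or below each log2 fold change of MLL4/LSD1 DKO over MLL4KO/LSD1CI (x axis). The curve of the 1005 genes lower in MLL4 KO than in WT ESCs lies to the right of that of all genes, with a median of 0.95, and the curve of the 575 genes higher in MLL4 KO lies to the left, with a median of -0.60.

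Genes of the first list with the smallest p included several of the extracellular matrix and cell surface. The laminin subunit Lama3 had 53.4, 49.1, 44.4 and 61.5 CPM in MLL4/LSD1 DKO cells, against 3.08, 2.74, 5.04 and 4.67 CPM in MLL4KO/LSD1CI cells (log2 3.75 ± 0.20, adjusted p = 9.52e-08), and MLL4 KO cells had 1.83 and 2.95 CPM. The endocytic receptor Lrp2, whose promoter is printed above, had 60.6, 69.5, 65.3 and 67.9 CPM, against 11.5, 9.85, 9.45 and 9.45 CPM in MLL4KO/LSD1CI cells (log2 2.71 ± 0.11, adjusted p = 9.81e-09), a level above the 11.4 to 39.8 CPM of WT cells. B4galnt3, a glycosyltransferase on chromosome 6, had 87.1 to 109 CPM, against 6.86 to 8.69 CPM in MLL4KO/LSD1CI cells (log2 3.58), Nav1, a microtubule-associated protein, had 91.1 to 151 CPM, against 9.18 to 11.5 CPM (log2 3.53), and Casz1, a zinc finger factor, had 23.5 to 24.98 CPM, against 2.253 to 3.31 CPM (log2 3.03). For B4galnt3 and Nav1 the MLL4/LSD1 DKO range overlapped that of WT cells, which ran from 73.3 to 119 CPM and from 85.5 to 114 CPM.

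The second list ran the opposite way. Mid1, an X-linked ubiquitin ligase, had 151, 144, 187 and 184 CPM in MLL4/LSD1 DKO cells, against 1196, 1292, 1130 and 1425 CPM in MLL4KO/LSD1CI cells (log2 -2.91 ± 0.11, adjusted p = 6.70e-09), where MLL4 KO cells had 932 and 982 CPM and WT cells 196 to 572 CPM. Sox21, a neural repressor, had 3.91, 3.34, 5.40 and 4.93 CPM, against 46.1, 48.1, 41.5 and 44.8 CPM in MLL4KO/LSD1CI cells (log2 -3.36 ± 0.16, adjusted p = 3.71e-08), and 1.48 to 15.7 CPM in WT cells. The carbonic anhydrase Car2, the integrin Itgb5, the peptide ligand Apln and the teneurin Tenm4 fell by 2.24, 1.66, 3.73 and 1.97 on the log2 scale. Mest, described above and on chromosome 6, went against this direction. It was among the 14 genes that were higher in MLL4 KO than in WT cells and also higher in MLL4/LSD1 DKO than in MLL4KO/LSD1CI cells.

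The same contrast between absent and inactive LSD1 can be made in cells that keep MLL4. LSD1 KO cells had 823 genes higher (4.68%) and 726 lower (4.12%) than LSD1 CI cells (8.80% called), in a fit with a term for alignment batch, since all LSD1 KO libraries belong to a batch shared only with WT replicates 1 to 3. Without the term 2823 genes were called, and DESeq2 with the term called 1272 higher and 654 lower, a different balance of directions. Of the 692 higher genes tested in both, 208 (30.1%) were also higher in MLL4/LSD1 DKO than in MLL4KO/LSD1CI cells, which is 24.6% of the 846 higher genes there. Of the 707 lower genes tested in both, 77 (10.9%) were also lower, or 20.3% of the 379. The filter on low counts of the direct comparison limits these shares of tested genes as well. The comparisons share no library, although each double line derives from the matching single line. Across the 14140 genes the fold changes of both contrasts correlated weakly (Pearson r = 0.182, Spearman rho = 0.227), and genes are not independent replicates.

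The difference between both contrasts was tested gene by gene. It was called for 1425 genes (8.10% of 17603), 926 (5.26%) with a more positive effect of absent over inactive LSD1 in MLL4-null cells and 499 (2.83%) with a more negative one. DESeq2 called 921 and 779, with less of a lean towards positive effects, and without the alignment term edgeR called 2858. Liph and B4galnt3 had the smallest adjusted p. For Liph, in MLL4-present cells there were 71.5 to 83.5 CPM in LSD1 KO and 61.5, 61.5, 61.1 and 64.8 CPM in LSD1 CI cells (log2 -0.16 ± 0.19 with the batch term), and the difference of log2 fold changes was 5.08 ± 0.30 (adjusted p = 3.6e-16). Cdh1 gave 0.07 ± 0.12 with MLL4 and a difference of 1.71 ± 0.15 (adjusted p = 6.8e-11). The differences of Lama3, Nav1, B4galnt3, Nol4l and Tcl1 were 3.77, 2.92, 3.03, 3.14 and 3.16, and none of these genes was called between LSD1 KO and LSD1 CI cells. A4galt, a glycosphingolipid synthase, had 44.0 to 56.9 CPM in MLL4/LSD1 DKO cells, against 2.34 to 8.43 CPM in MLL4KO/LSD1CI cells, while it had 45.5 to 54.6 CPM in LSD1 KO and 87.9 to 109 CPM in LSD1 CI cells, so that the direction of the contrast turned with MLL4 (difference 4.42 ± 0.38, adjusted p = 1.7e-10). The uncharacterised 1700001L05Rik, which lies close to A4galt on chromosome 15, and the procollagen enhancer Pcolce had differences of 3.29 and 1.90. Kdm1a itself differed by 0.12 ± 0.27 (adjusted p = 0.82), as both contrasts remove its RNA. For Dnmt3l the difference was 1.36 ± 0.77 (adjusted p = 0.20), so that neither a shared nor a different effect can be read from it.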

How the data were processed

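RNA was measured in 43 untreated naive ESC libraries, 8 of which form the comparison. Lines lacking RCOR2, RCOR1 or both are among the 43 and were not compared with any group. The libraries of the series outside these 43 were not used here. The authors depleted ribosomal RNA, sequenced strand-specific paired reads, trimmed them, aligned them to mouse build mm9 with STAR 2.7.9a, removed duplicates with Picard 2.25.5 and deposited reverse-stranded featureCounts counts per gene for 25209 symbols. Between 81.6% and 84.1% of counts from 2 to 39 in the 8 libraries were even, as when both mates of a pair are counted, and a fit on halved counts was tried.

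The 8 libraries held 17.3 to 22.1 M counts each. Their counts went into edgeR 4.0.16 under R 4.3.3, with TMM scaling, filterByExpr and the robust quasi-likelihood F test, with Benjamini-Hochberg adjustment over all genes tested. Calls needed an adjusted p below 0.01 and a log2 fold change beyond 1, the thresholds the study used with DESeq2. Comparisons that involve MLL4 KO, WT, LSD1 KO or LSD1 CI cells came from a fit of all 43 libraries with a term for alignment batch, read from whether a library held counts on unplaced contigs. Standard errors were derived from F (absolute log2 value over the root of F). Levels are CPM scaled by TMM over the 43 libraries and are not corrected for gene length, so they are compared between libraries, not between genes. Chromosome medians per library used log2(CPM + 1) of genes above a mean of 5 CPM. The fits were tested on simulated data.

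Same-numbered libraries of the 2 groups deviated together (correlations 0.106, 0.343, 0.273 and 0.172 for numbers 1 to 4), which met the rule set for pairing by number. The main fit used the group only and did not pair the libraries, and the replicate number entered as a block in an alternative fit. The labels do not say what a number marks, and replicates 1 and 4 of MLL4/LSD1 DKO correlated more with numbers 3 (0.212) and 2 (0.224) of MLL4KO/LSD1CI. In both groups the second principal component set replicates 1 and 3 apart from 2 and 4. Promoter sequences came from RefSeq (GRCm38.p6).

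By rule, the named genes were the altered enzymes with RCOR1 and RCOR2, the markers Liph, Folr1 and Gsx2, 6 genes the study discusses, the 15 strongest fold changes in either direction among called genes that reached 5 CPM in one group without overlapping libraries, the 4 smallest adjusted p-values in every list, the 10 smallest p-values of the difference test and, of the MLL4-responsive genes, the 8 smallest p-values in either direction. The text prints part of them. The members and lists were chosen with earlier results of these data known. Alternatives were DESeq2 1.42.0, its size factors in edgeR, no filter, a replicate block, other sets of libraries, leaving out each library, no Rn45s and, added after seeing the data, no chromosome 6 genes, other pairs of replicate numbers and DESeq2 for the wider comparisons.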

Additional observations from a re-analysis of the deposited data

Results flagged for a closer look

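Single libraries stood apart from the other 3 of their group in 5 of 176 gene and group combinations checked among the named genes, a share of 2.84% where chance alone gives about 1 in 20. In MLL4/LSD1 DKO cells, Sall3 had 7.003 CPM in replicate 3 (0.868 to 1.56 CPM in the others), and Spats2l had 0.477 CPM in replicate 2 (1.77 to 2.02 CPM in the others). In MLL4KO/LSD1CI cells, Dnmt3l had 2.34 CPM in replicate 3 (0.588 to 0.761 CPM in the others), Hesx1 had 1.17 CPM in the same library (0.326 to 0.392 CPM), and Sox2 had 416 CPM in replicate 2 (462 to 469 CPM).

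The effect of absent over inactive LSD1 differed between MLL4-null and MLL4-present cells in 1425 genes by the test of the difference itself. Among the named genes, the differences of log2 fold changes were 5.08 for Liph, 4.42 for A4galt, 3.77 for Lama3, 3.29 for 1700001L05Rik, 3.16 for Tcl1, 3.14 for Nol4l, 3.03 for B4galnt3, 2.92 for Nav1, 1.90 for Pcolce and 1.71 for Cdh1, each more positive without MLL4. LSD1 KO libraries and LSD1 CI libraries belong to different alignment batches, and part of the difference rests on the batch term, which WT libraries alone estimate.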

How the results depend on the processing

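In the direct comparison, the fit with the replicate number as a block called 1413 genes (971 higher, 442 lower), against 1225 without it. Leaving out 1 library at a time gave 1036 to 1174 genes. Only the smaller sets of libraries moved the count by over 1.5 times: 460 genes with numbers 1 and 2 and 503 with numbers 3 and 4. DESeq2 called 1541 genes and the fit without chromosome 6 called 1103.

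Against MLL4 KO, leaving out 1 library gave 876 to 1457 calls for MLL4/LSD1 DKO cells and 6 to 24 for MLL4KO/LSD1CI cells, lowest in both without replicate 1 of MLL4 KO, and the block over numbers 1 and 2 gave 1319 and 25. DESeq2 gave 47 calls for MLL4KO/LSD1CI cells. MLL4 KO against WT called 770 genes with WT replicates 10 and 11 only and 1033 to 1387 without 1 MLL4 KO library. LSD1 KO against LSD1 CI called 2823 genes without the alignment term and 2534 with a replicate block over numbers 1 to 4 in place of that term. The difference test called 2858 without the term. With DESeq2, LSD1 KO against LSD1 CI gave 1272 higher and 654 lower genes (823 and 726 with edgeR), and the difference test 921 and 779 (926 and 499 with edgeR).

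The median of genes higher in MLL4 KO was -0.60, and it was -0.71 with WT replicates 10 and 11 only, -0.64 with DESeq2 and -0.64 with no filter, -0.66, -0.53, -0.55 and -0.73 with numbers 1 and 2, 3 and 4, 1 and 3, and 2 and 4, and -0.65 to -0.59 when 1 library was left out. The median of genes lower in MLL4 KO moved by less than the spread between libraries under every alternative run. Over 88 named genes and 20 settings, 1704 of 1755 values kept their side of the thresholds, 47 lost a call, 4 gained one and none of the called values changed sign. A change of sign between values that were not called was not counted. The replicate block took the calls of Dppa5a and Plac8 among the named genes and no other. Depth limits genes below 1 CPM, a level of 17.3 to 22.1 counts per library.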

Other observations

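Among the 25 genes called between MLL4KO/LSD1CI and MLL4 KO cells, 3 lie on the Y chromosome: Kdm5d, Zfy1 and Ddx3y. Kdm5d had no count in either MLL4 KO library and averaged 3.11 CPM in MLL4KO/LSD1CI cells. The summed level of Kdm5d, Ddx3y, Uty and Eif2s3y was 77.5 to 143 CPM in MLL4/LSD1 DKO, 103 to 179 CPM in MLL4KO/LSD1CI, 35.9 to 41.3 CPM in MLL4 KO, 217 to 241 CPM in LSD1 KO, 146 to 175 CPM in LSD1 CI and 48.2 to 124 CPM in WT libraries. Peg13, an imprinted transcript on chromosome 15, averaged 9.93 CPM in MLL4/LSD1 DKO, 0.866 CPM in MLL4KO/LSD1CI and 6.14 CPM in MLL4 KO cells.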
